A study of Mus musculus with 5 samples.

Results

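The 8 genes described here join the glucocorticoid receptor and its common target genes with the thioredoxin inhibitor Txnip, its relative Arrdc4 and the stress gene Ddit4. They were Tsc22d3, Fkbp5, Per1, Klf9, Nr3c1, Txnip, Arrdc4 and Ddit4, taken by symbol from a table of 21289 genes. All 8 were in the table and all 8 passed the filter on low counts. The set was put together because Tsc22d3 and Txnip stood higher in the curcumol libraries, so the difference between the treatment groups is given for these genes as a description, without a test. RNA was sequenced from cells sorted as CD45+CD64+ from hearts of wild-type male C57BL/6JGpt mice after myocardial infarction (MI), on day 7. CD45 is the common antigen of leukocytes, and CD64, an Fc receptor, singles out monocytes and macrophages among them. The untreated group held 2 samples from infarcted mice that received no curcumol. The curcumol group held 3 samples from infarcted mice given curcumol, a plant sesquiterpene, by daily gavage at 30 mg/kg. Whether a sample came from 1 mouse or from pooled mice is not stated in the labels.

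Glucocorticoids are adrenal steroids that cross the cell membrane and bind the glucocorticoid receptor, a transcription factor held ready in the cytoplasm by heat shock chaperones. The bound receptor moves to the nucleus and induces genes that restrain inflammation in macrophages, along with genes that feed back on the receptor itself. Txnip and Arrdc4 belong to the alpha-arrestins. Both are induced when sugar phosphates activate the paired factors MondoA (Mlxip) or ChREBP (Mlxipl) with Mlx, and Txnip in turn limits glucose uptake and binds thioredoxin. Ddit4, also known as REDD1, restrains the growth kinase complex mTORC1 and is induced by glucocorticoids, low oxygen and other stresses.

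Library totals ranged from 39768705 to 43315822 counts. The untreated libraries held fewer genes with a count, 12243 and 12915, against 17078 to 18501 in the curcumol libraries. The markers of the gate, Ptprc (CD45) and Fcgr1 (CD64), were read in all 5 libraries, at 244 to 489 and 267 to 350 CPM (counts scaled to the same library total). Curcumol replicate 2 stood apart from the other curcumol libraries for several of the 8 genes, most of all Fkbp5, so values are also given without it. In bulk samples fewer cells of a type and less RNA per cell cannot be told apart.

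The stretches before the start sites of 3 of the genes are shown because Txnip and Arrdc4 share an upstream regulator and Fkbp5 varied most among the libraries. They are the 250 bases before the RefSeq start on build GRCm38.p6, read 5′ to 3′ on the strand of the gene. Txnip lies at chr3:96557707-96557956 on the plus strand, Arrdc4 at chr7:68749239-68749488 on the minus strand and Fkbp5 at chr17:28486150-28486399 on the minus strand. Capitals mark the carbohydrate response pair in Txnip, written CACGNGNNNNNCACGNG, and the E-box CACGTG in Arrdc4 and Fkbp5.
Txnip: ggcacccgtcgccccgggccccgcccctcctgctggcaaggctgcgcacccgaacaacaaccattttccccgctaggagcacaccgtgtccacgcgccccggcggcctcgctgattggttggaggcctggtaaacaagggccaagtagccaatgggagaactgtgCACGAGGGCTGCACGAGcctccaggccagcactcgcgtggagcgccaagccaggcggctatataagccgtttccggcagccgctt
Arrdc4: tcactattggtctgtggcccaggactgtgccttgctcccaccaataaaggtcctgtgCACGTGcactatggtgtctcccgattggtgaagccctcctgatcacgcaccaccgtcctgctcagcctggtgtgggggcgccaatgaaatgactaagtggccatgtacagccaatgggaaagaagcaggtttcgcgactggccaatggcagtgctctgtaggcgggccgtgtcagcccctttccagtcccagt
Fkbp5: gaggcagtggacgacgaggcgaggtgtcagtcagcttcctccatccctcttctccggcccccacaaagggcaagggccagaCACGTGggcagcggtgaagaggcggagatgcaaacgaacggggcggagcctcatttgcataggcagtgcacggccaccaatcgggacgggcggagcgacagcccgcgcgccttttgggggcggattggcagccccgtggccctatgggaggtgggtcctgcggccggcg
The pair in Txnip was the match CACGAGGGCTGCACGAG and began 85 bases before the start. On either strand this motif occurred in 0.0487% of 32851 RefSeq windows of 300 bases, which run from 250 bases before to 50 after a start. The pair was not in the windows of Arrdc4 and Fkbp5. The E-box began 193 bases before the start in Arrdc4 and 169 in Fkbp5. It also occurred in 1 of 2 windows of Per1, 166 bases before the start, and in 7.15% of all windows. Each CACGTG reads the same on both strands.

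The glucocorticoid receptor palindrome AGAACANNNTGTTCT was in none of the 10 windows read for 7 of the genes, and in 0.00913% of all windows. Its hexamer TGTTCT, searched on both strands and contained in the palindrome, occurred in 1 of 3 windows of Tsc22d3, 185 bases before that start, and in 19.0% of all windows. The cyclic AMP element core TGACGT was in 1 window of Per1 and in the window of Klf9, 132 and 46 bases before the start, against 7.51% of all windows. The CCAAT box was in the windows of Txnip, Arrdc4, Fkbp5, Per1, Klf9 and Ddit4 and in 37.4% of all windows, and it was not in the 3 windows of Tsc22d3. These matches are descriptions of short windows, and the counts do not show from which start a transcript came.

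Nr3c1, which encodes the glucocorticoid receptor (NCBI gene 14815), had the most even values within each group. It stood at 37.9 and 36.3 CPM without curcumol and at 78.7, 74.5 and 70.5 CPM with it. All curcumol libraries lay above both untreated ones, and curcumol replicate 2 was in the middle of its group. The mean was 37.1 ± 1.13 CPM (SD, n = 2) without and 74.6 ± 4.09 CPM (n = 3) with curcumol, a 2.01-fold difference. The fitted log2 difference, curcumol minus untreated, was 0.82 ± 0.18 (SE), and 0.84 ± 0.19 without curcumol replicate 2.

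Tsc22d3 encodes GILZ, the glucocorticoid-induced leucine zipper that binds and restrains NF-kB and AP-1 (NCBI gene 14605). It was the most abundant of the 8 genes, at 322 and 289 CPM without curcumol and 761, 1263 and 657 CPM with it. The groups did not overlap, and curcumol replicate 2 was the highest library. The log2 difference was 1.36 ± 0.30, and 1.04 ± 0.18 without curcumol replicate 2.

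Fkbp5 encodes a co-chaperone of the receptor that lowers its affinity for hormone and closes a negative feedback loop (NCBI gene 14229). It stood at 16.9 and 10.2 CPM without curcumol and at 63.9, 485 and 76.1 CPM with it. Curcumol replicate 2 held 19927 reads of this gene, 6.92 times the CPM of the mean of the other curcumol libraries. Those other libraries still lay above both untreated ones. The mean fold was 15.4 with all libraries and 5.16 without curcumol replicate 2, and the log2 difference was 3.73 ± 1.04 and 2.19 ± 0.34.

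Klf9 (NCBI gene 16601) is a zinc-finger factor that glucocorticoids induce in many tissues, and Per1 (NCBI gene 18626) is a clock repressor whose gene responds both to the receptor and to cyclic AMP. Klf9 stood at 26.4 and 31.6 CPM without curcumol and at 31.5, 58.8 and 43.2 CPM with it. The groups overlapped, since curcumol replicate 1 lay just under untreated replicate 2. The log2 difference of Klf9 was 0.42 ± 0.29, and 0.19 ± 0.26 without curcumol replicate 2. Per1 stood at 12.8 and 15.6 CPM without curcumol and at 14.2, 17.0 and 29.0 CPM with it. Its groups overlapped too, and here curcumol replicate 3 was the high library. The log2 difference of Per1 was 0.31 ± 0.38, and it was -0.04 without curcumol replicate 3.

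**Figure D1:**
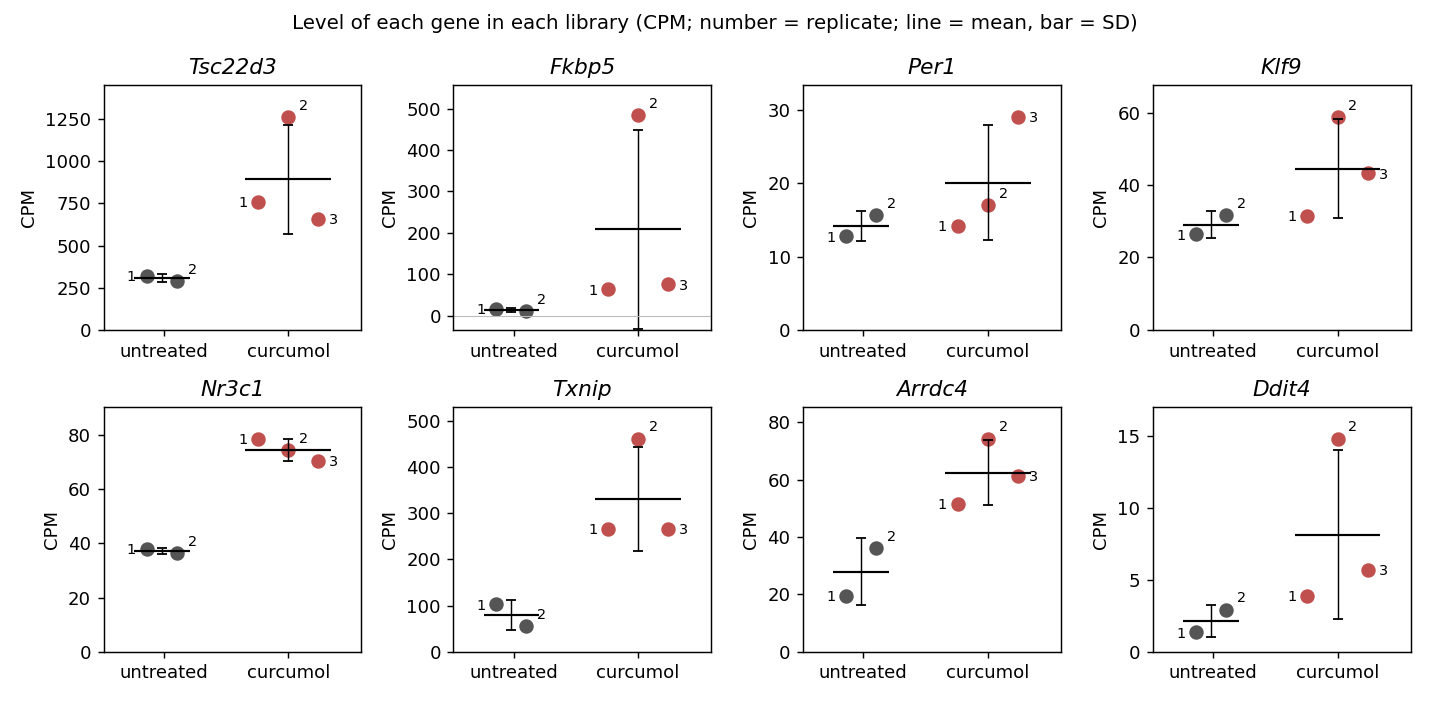
Level of each of the 8 genes in every library. The vertical axes are CPM on a linear scale, points are libraries numbered by replicate, lines are group means and bars are SD (n = 2 untreated, n = 3 curcumol). Fkbp5 reaches 485 CPM in curcumol replicate 2 against 63.9 and 76.1 CPM in the other curcumol libraries, while the Nr3c1 points sit close together in each group.

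Txnip binds and inhibits thioredoxin and pulls glucose transporters from the cell surface (NCBI gene 56338). It stood at 103 and 56.1 CPM without curcumol and at 267, 462 and 266 CPM with it. The groups did not overlap, and curcumol replicate 2 was again highest. The mean was 79.4 ± 33.0 CPM (SD, n = 2) and 332 ± 113 CPM (n = 3), a 4.17-fold difference, or 3.35-fold without curcumol replicate 2. The log2 difference was 1.86 ± 0.38, and 1.57 ± 0.34 without that library.

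Arrdc4, the relative of Txnip that also acts on glucose uptake (NCBI gene 66412), stood at 19.6 and 36.2 CPM without and 51.7, 74.3 and 61.5 CPM with curcumol. The groups did not overlap. In the untreated libraries the order of the pair was crossed: untreated replicate 1 had more Txnip and less Arrdc4 than untreated replicate 2. The log2 difference of Arrdc4 was 0.98 ± 0.31, and 0.85 ± 0.35 without curcumol replicate 2. It rested more on the untreated libraries, with 0.62 when untreated replicate 1 was left out and 1.48 when untreated replicate 2 was.

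Ddit4 (NCBI gene 74747) was the gene with the fewest reads. It stood at 1.34 and 2.93 CPM without curcumol and at 3.90, 14.8 and 5.71 CPM with it. The lowest library held 58 reads, with an exact 95% Poisson interval of 44.0 to 75.0 that covers counting error only. The groups did not overlap, and curcumol replicate 2 stood 3.09 times above the mean of the other curcumol libraries. The mean fold was 3.82, or 2.25 when that library was left out. The log2 difference was 1.74 ± 0.83, and 0.9999 ± 0.94 without curcumol replicate 2. Leaving out untreated replicate 2 made it 2.40.

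In all, 8 of the 8 genes had a log2 difference above 0, as did 57.1% of the 14508 tested genes, and 6 had groups that did not overlap, with curcumol higher, as did 36.6%. By edgeR's quasi-likelihood method none had an adjusted p under 0.05, beside 0.207% of all tested genes. The median log2 difference was 1.17 over the 8 genes and 0.15 over all tested genes. It was 0.93 over the 8 genes and 0.11 over all without curcumol replicate 2. Since the genes were picked on this contrast, these counts and medians describe the choice and test nothing. Overlap and mean folds were taken on CPM without TMM factors, and the log2 differences with them. The factors were 0.911 and 0.939 in the untreated libraries and 1.02 to 1.07 in the curcumol libraries. CPM therefore place the curcumol libraries higher than the fit does. Scaling by total counts in place of TMM factors moved the median of all genes by 0.19, and all 8 differences stayed above 0.

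**Figure D2:**
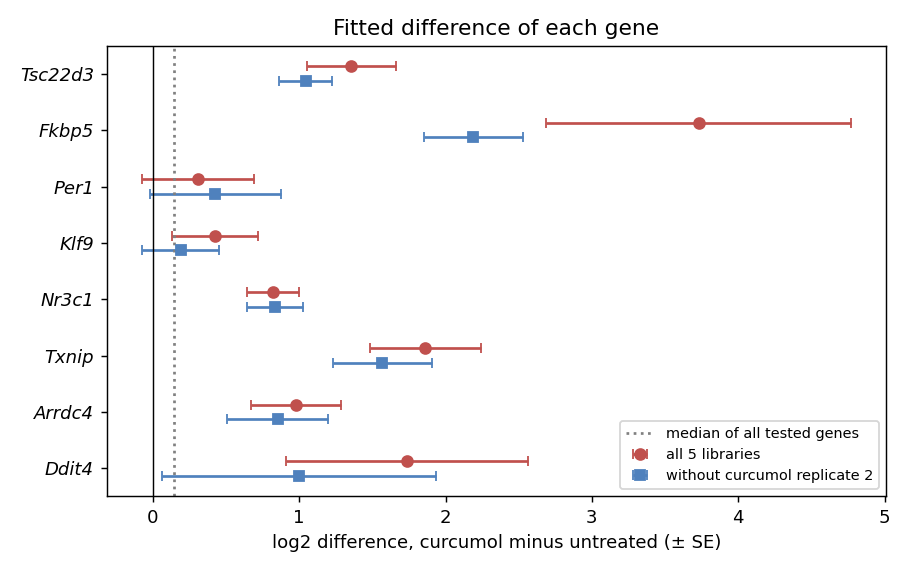
Fitted log2 difference of each gene, curcumol minus untreated, with SE, over all 5 libraries (circles) and without curcumol replicate 2 (squares). The dotted line is the median of all tested genes, 0.15. Fkbp5 moves from 3.73 to 2.19 when that library is left out, and Nr3c1 stays at 0.82 and 0.84.

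Curcumol replicate 2 was the highest of the curcumol libraries for 6 of the 8 genes, as for 38.2% of all tested genes. The exceptions were Nr3c1 and Per1. On the log2 CPM scale Fkbp5 exceeded the mean of the other curcumol libraries there by 2.76. This was the 4th largest excess among 10751 genes with an average log2 CPM of at least 1, and the largest among 4398 genes with an average of at least 5. Zbtb16, a zinc-finger factor and a well-known glucocorticoid-induced gene, ranked 2nd among the 10751, with an excess of 3.04. It was singled out after its values were seen. Zbtb16 stood at 0 and 0.984 CPM without curcumol and at 2.80, 27.4 and 3.65 CPM with it, so the library highest in Fkbp5 was also highest in Zbtb16. Ddit4 ranked 58th of the 10751 (1.61), Tsc22d3 750th (0.80) and Txnip 846th (0.76). Of the other glucocorticoid-induced genes listed below, curcumol replicate 2 was highest of the curcumol libraries for 10 of 26 (38.5%). With 1 library in question these ranks have no replicate check.

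**Figure D3:**
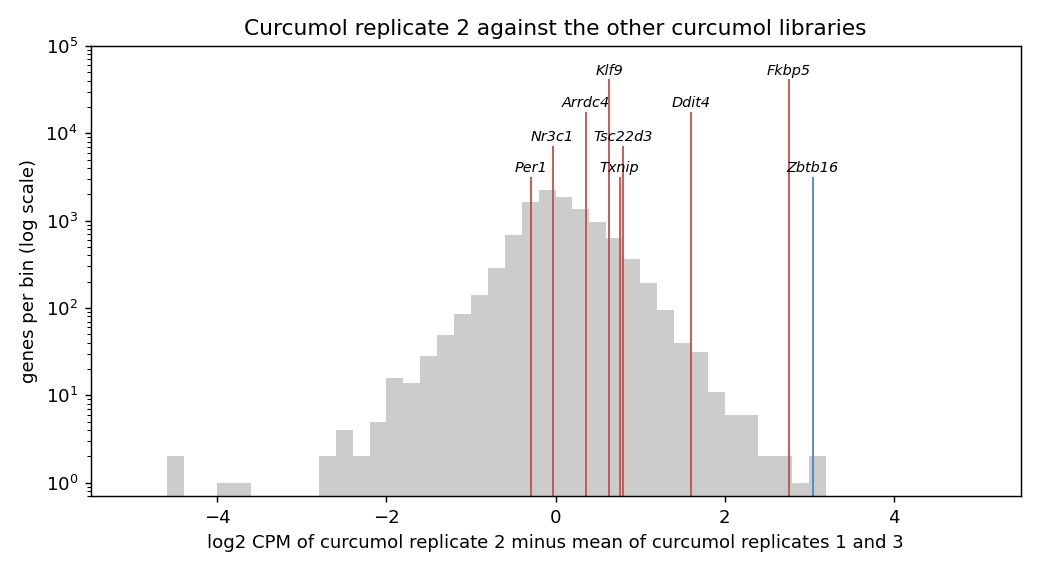
Histogram over 10751 genes of the log2 CPM of curcumol replicate 2 minus the mean of curcumol replicates 1 and 3, with the number of genes per bin on a log axis. Vertical lines mark the 8 genes (red) and Zbtb16 (blue). Fkbp5 (2.76) and Zbtb16 (3.04) lie at the upper end, and Nr3c1 (-0.03) and Per1 (-0.29) lie near the centre.

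Levels of different genes were compared per kilobase of the longest coding transcript in GENCODE M21. In the untreated libraries the order of the mean CPM per kilobase was Tsc22d3 (155 ± 12.0, SD, n = 2), Txnip (28.1 ± 11.7), Arrdc4 (7.14 ± 3.01), Klf9 (6.47 ± 0.82), Nr3c1 (5.77 ± 0.17), Fkbp5 (3.52 ± 1.21), Per1 (3.04 ± 0.43) and Ddit4 (1.22 ± 0.64). Neighbours whose libraries overlapped were Arrdc4 with Klf9, Klf9 with Nr3c1, and Fkbp5 with Per1. In the curcumol libraries Tsc22d3 stayed 1st (453 ± 164, n = 3) and Txnip 2nd (117 ± 39.9), and Fkbp5 stood 3rd (54.0 ± 62.1). That place rested on curcumol replicate 2, where Fkbp5 reached 126 CPM per kilobase against 16.6 and 19.7 in the others. Arrdc4 followed at 16.0 ± 2.91, Nr3c1 at 11.6 ± 0.64, Klf9 at 9.92 ± 3.05, Ddit4 at 4.64 ± 3.34 and Per1 at 4.30 ± 1.69. Of the neighbours with curcumol, only Tsc22d3 from Txnip and Arrdc4 from Nr3c1 were separated in all libraries. Transcript choice sets this scale: the coding transcripts of Tsc22d3 run from 952 to 1974 bases and those of Fkbp5 from 777 to 3858.

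Other genes of the same pathways were taken from 5 lists, 101 genes in all, of which 97 were tested. None passed an adjusted p of 0.05 in edgeR. Unadjusted, 17 had a p under 0.05 and stood higher (17.5%, against 18.1% of all tested genes) and 19 stood lower (19.6%, against 6.51%). DESeq2 called 14 higher and 16 lower at an adjusted p of 0.05, beside 12.5% higher and 4.37% lower of the genes it tested. The edgeR count was 1 of 96 without curcumol replicate 3, beside 19 of 13775 over all tested genes. It was 0 of 97 without curcumol replicate 1, beside 1 of 13986 over all. It was 0 of 96 without curcumol replicate 2, beside 0 of 13934 over all. The median log2 difference over the 97 genes was 0.14, beside 0.15 over all tested genes. Leaving out curcumol replicate 2 turned it to -0.02, beside 0.11 over all.

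The 26 tested genes of the list of other glucocorticoid-induced genes had a median log2 difference of -0.33, with 12 above and 14 below 0, and a median of -0.17 without curcumol replicate 2. Their values went in opposite directions. Lower with curcumol in all libraries were Cdkn1a, the cell cycle inhibitor p21, at 485 and 574 CPM without and 262, 248 and 289 CPM with curcumol (log2 difference -1.18 ± 0.15, edgeR adjusted p = 0.0523), and 9 others. These others were Dusp1, Sgk1, Anxa1, Mt2, Nfkbia, Zfp36, Il1r2, Errfi1 and Rgs2. Of them Dusp1, Zfp36 and Nfkbia are also early response or NF-kB target genes. These 3 and Sgk1 were singled out after their values were seen. Sgk1 stood at 709 and 537 CPM without and 189, 220 and 295 CPM with curcumol (-1.60 ± 0.23). The phosphatase gene Dusp1 stood at 9494 and 10430 CPM without and 4891, 3142 and 4689 CPM with curcumol. The mRNA decay factor Zfp36 stood at 3813 and 3702 CPM without and 1749, 1236 and 1788 CPM with curcumol. The NF-kB inhibitor Nfkbia stood at 3439 and 3723 CPM without and 783, 662 and 1361 CPM with curcumol. A list of 22 genes that tissue dissociation induces, such as Fos and Atf3, moved the same way. Its summed level was 23726 to 25473 CPM without and 8475 to 15654 CPM with curcumol. Fos alone stood at 11839 and 12827 CPM without and 5422, 3471 and 6286 CPM with curcumol. Of the list 15 of 22 genes were lower without overlap, beside 9.31% of all tested genes, and 2 of 21 tested had a log2 difference above 0. The part of this list in these results was not tested.

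The genes of that list with higher values included Sult1a1, a sulfotransferase, at 15.3 and 14.6 CPM without and 105, 189 and 86.3 CPM with curcumol (2.89 ± 0.38, edgeR adjusted p = 0.0523). Lcn2, the iron carrier lipocalin 2 that neutrophil granules also hold, stood at 2.29 and 5.33 CPM without and 110, 46.4 and 81.8 CPM with curcumol (4.21 ± 0.57, edgeR adjusted p = 0.0555). The hemoglobin scavenger receptor Cd163, a glucocorticoid-induced marker of resident macrophages singled out after its values were seen, stood at 35.6 and 27.8 CPM without and 195, 320 and 84.2 CPM with curcumol. Of the 26 genes 8 were higher without overlap between the groups (30.8%, against 36.6% of all tested genes) and 10 lower (38.5%, against 9.31%). A glucocorticoid response term of the Gene Ontology was carried in the deposited annotation by 39 other genes, a group added after the data were seen. Of these, 32 were tested, with a median of 0.21, 19 above and 13 below 0. None passed in edgeR, and 7 of the 32 were higher and 7 lower at an unadjusted p under 0.05, beside 18.1% and 6.51% of all tested genes.

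The receptor's chaperones, coregulators and ligand enzymes had a median of 0.21 over 22 tested genes, with 13 above and 9 below 0, and of 0.03 without curcumol replicate 2. The 2 chaperones with the smallest p were lower with curcumol, and the groups of the other chaperones and co-chaperones listed overlapped. Of those, Hsp90ab1 (0.19 ± 0.22) and Ptges3 (0.22 ± 0.29) had a log2 difference above 0. Dnaja1, Stip1, Fkbp4, Ppid, Bag1 and Stub1 lay below 0, from -0.40 (Bag1) to -0.03 (Fkbp4). Hsp90aa1, the inducible Hsp90 that holds the receptor ready for hormone, stood at 336 and 284 CPM without and 224, 219 and 198 CPM with curcumol (-0.73 ± 0.17, edgeR adjusted p = 0.0689). Hspa8, the constitutive Hsp70 that loads the receptor onto Hsp90 and has many processed copies that may share its reads, stood at 1993 and 2047 CPM without and 1587, 1300 and 1449 CPM with curcumol (-0.67 ± 0.17, edgeR adjusted p = 0.0756). Nr3c2, the mineralocorticoid receptor that also binds glucocorticoids, had no read in either untreated library and stood at 2.73, 4.60 and 1.99 CPM with curcumol. Taking 3 counts in each untreated library as the floor, the mean level with curcumol was at least 43.9-fold higher (edgeR adjusted p = 0.0644). This bound covers counting error only, and the untreated libraries held fewer genes with a count, as given above. Hsd11b1, of the same list, had 0 CPM in untreated replicate 1 and 11.7 CPM in untreated replicate 2.

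Of 25 thioredoxin, arrestin and glucose-sensing partners 23 were tested, with a median of 0.11 (0.04 without curcumol replicate 2), 14 above and 9 below 0. Slc2a1, the glucose transporter GLUT1 that Txnip acts on, stood at 88.5 and 115 CPM without and 72.3, 64.7 and 58.2 CPM with curcumol (-0.82 ± 0.20, edgeR adjusted p = 0.0720). Itch, a ubiquitin ligase that marks Txnip for degradation, stood at 14.6 and 17.4 CPM without and 39.4, 58.9 and 34.0 CPM with curcumol (1.28 ± 0.31, edgeR adjusted p = 0.0729). Arrdc2, a further alpha-arrestin, stood at 7.80 and 6.48 CPM without and 17.1, 21.3 and 20.9 CPM with curcumol (1.27 ± 0.33, edgeR adjusted p = 0.0768). Mlxip, the MondoA gene, was singled out after its values were seen. It stood at 17.9 and 29.1 CPM without and 48.8, 140 and 66.0 CPM with curcumol, again highest in curcumol replicate 2. Its log2 difference was 1.66 ± 0.49, and 1.12 without that library. For Mlx (-0.03 ± 0.44) and the ChREBP gene Mlxipl (0.71 ± 0.55) the groups overlapped. Among 67 tested genes with a glucose response term, a group also added after the data were seen, the median was 0.17 with 43 above and 24 below 0. None passed in edgeR, and 15 of the 67 were higher and 7 lower at an unadjusted p under 0.05, beside the same 18.1% and 6.51%.

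Partners of Ddit4 in the control of mTORC1 had a median of 0.24 over 20 tested genes, with 12 above and 8 below 0, and of 0.15 without curcumol replicate 2. Tsc1, the partner of tuberin in the complex through which Ddit4 acts, stood at 8.06 and 9.17 CPM without and 18.0, 21.0 and 21.9 CPM with curcumol (1.05 ± 0.30, edgeR adjusted p = 0.0881). Rheb, the GTPase this complex switches off, stood at 140 and 166 CPM without and 125, 105 and 125 CPM with curcumol (-0.56 ± 0.17, edgeR adjusted p = 0.103). Deptor, an inhibitor of mTOR, stood at 27.2 and 14.4 CPM without and 36.9, 51.5 and 50.2 CPM with curcumol (0.95 ± 0.34, edgeR adjusted p = 0.145).

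The closest paralogues did not all stand on the same side as the 8 genes. Their median was 0.59 over 11 tested genes, with 7 above and 4 below 0, and 0.11 without curcumol replicate 2. Tsc22d1, a paralogue of Tsc22d3, stood at 55.5 and 47.3 CPM without and 24.4, 35.9 and 33.2 CPM with curcumol (-0.92 ± 0.23, edgeR adjusted p = 0.0762). The other paralogues with the smallest p were Nr3c2 and Arrdc2, given above.

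**Figure D4:**
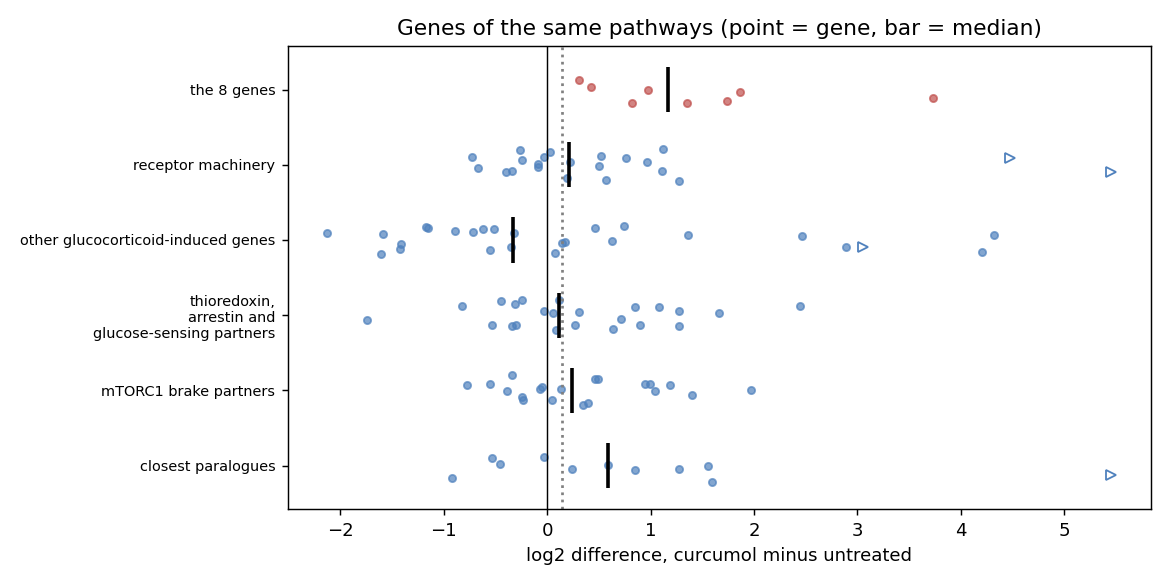
Log2 difference, curcumol minus untreated, of the 8 genes (red) and of the tested genes of 5 pathway lists (blue), with 1 point per gene and bars at the medians. Open triangles are genes without a read in the untreated libraries, drawn at a bound that covers counting error only. The dotted line is the median of all tested genes, 0.15. The 8 genes, chosen on this contrast, lie above 0, and the other glucocorticoid-induced genes spread to both sides with a median of -0.33.

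Summed markers of other cell types stood higher in all curcumol libraries, except those of T and NK cells, whose groups overlapped. The 12 neutrophil markers summed to 359 and 397 CPM without curcumol and to 3605, 1687 and 3298 CPM with it, and 10 of 12 were higher without overlap, beside 36.6% of all tested genes. Camp and Ly6g had no read in the untreated libraries. Curcumol replicate 2, the highest library for Fkbp5, Tsc22d3 and Txnip, had the lowest neutrophil sum of its group. B cell markers behaved alike, at 49.9 and 36.5 CPM without and 238, 85.7 and 147 CPM with curcumol, with 7 of 8 higher and Pax5, Ebf1 and Vpreb3 without a read in the untreated libraries. T and NK cell markers summed to 99.2 and 108 CPM without and 98.3, 208 and 155 CPM with curcumol, highest in curcumol replicate 2. Curcumol replicate 1 lay under both untreated libraries. Of these markers 3 of 13 were higher without overlap, beside the same 36.6% of all tested genes. Ncr1 had no read in the untreated libraries.

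Fibroblast markers summed to 34.4 and 28.7 CPM without and 137, 175 and 365 CPM with curcumol. Of these 7 of 10 were higher without overlap, beside 36.6% of all tested genes, a share to set beside each list here. Pdgfra and Lum had no read in the untreated libraries, which held fewer genes with a count, as given above. Endothelial and mural markers summed to 35.5 and 19.0 CPM without and 49.5, 77.0 and 69.7 CPM with curcumol, with 9 of 12 higher and Cdh5, Tie1, Tek, Egfl7, Pdgfrb and Rgs5 without a read in the untreated libraries. Cardiomyocyte markers summed to 26.3 and 55.9 CPM without and 111, 132 and 134 CPM with curcumol, with 8 of 10 higher and Ryr2 and Ttn without a read in the untreated libraries. The 10 macrophage and gate markers summed to 32280 to 33253 CPM without and 31108 to 35289 CPM with curcumol, a sum made up mostly of Lyz2 (21973 to 24599 CPM over the 5 libraries). Of these 10 markers 5 were higher and 1 was lower without overlap, beside 36.6% and 9.31% of all tested genes. The receptor gene Csf1r stood at 1378 and 1318 CPM without and 2337, 2439 and 1574 CPM with curcumol. The lysosomal Cd68 stood at 3344 and 2976 CPM without and 2100, 1855 and 2171 CPM with curcumol. Both were singled out after their values were seen. The part of these cell types in the levels of the 8 genes was not tested.

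The genes with the most similar profile over the 5 libraries were found by the root mean square difference between log2 CPM values, each gene centred on its own mean, among 10267 genes. For Tsc22d3 they were Ankib1 (0.06), Tent4b (0.08) and Cfap97 (0.09). For Txnip they were Hnrnpul1 (0.07), Sin3a (0.11) and Ctnnd1 (0.11). These genes were read at far lower levels: Ankib1 stood at 4.85 and 4.13 CPM without and 11.1, 16.8 and 9.35 CPM with curcumol, and Hnrnpul1 at 5.68 and 3.50 CPM without and 16.7, 28.2 and 15.3 CPM with curcumol. Among the 8 genes the closest pair was Tsc22d3 with Txnip (0.37), followed by Nr3c1 with Arrdc4 (0.37). Klf9 with Arrdc4, Tsc22d3 with Nr3c1, Per1 with Klf9 and Klf9 with Nr3c1 came next, each at 0.39. The most distant pair was Fkbp5 with Per1 (1.85). The set was put together because Tsc22d3 and Txnip stood higher with curcumol, so their closeness partly describes the choice and tests nothing. Txnip and Arrdc4, the alpha-arrestins, lay 0.72 apart.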

How the data were processed

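Bulk RNA sequencing counts of 2 untreated and 3 curcumol samples were analysed, with columns tied to samples by title. The authors deposited whole-number read counts per gene, without normalization. Per the submitters' processing notes fastp, HISAT2, HTSeq and Bowtie2 were used. Versions, genome build and annotation: not given in the sources used here. The labels and the design text name different library kits, so strand is not settled. CPM are counts scaled to a common library total (totals 39768705 to 43315822). The groups were compared by the quasi-likelihood method of edgeR 4.0.16 in R 4.3.3, on genes kept by filterByExpr at a minimum count of 10. TMM factors were used, the model held group alone, and p-values were adjusted after Benjamini-Hochberg over 14508 genes. SEs come from the fold change and F statistic. P-values measure the spread between these samples, which may be technical. Steps were tested on simulated data with less spread than these, a coefficient of variation between samples of 0.2 against 0.61 here. Alternatives used DESeq2 1.42.0, limma 3.58.1 (voom), other scalings and filters, a replicate block and leaving out each sample. Named were the 8 genes, the 3 genes with the smallest p of each list and the 3 nearest to Tsc22d3 and to Txnip. Members and lists were chosen with earlier results of these data known. Promoters are RefSeq's, build GRCm38.p6.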

Additional observations from a re-analysis of the deposited data

How the results depend on the processing

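The number of genes past an adjusted p of 0.05 depended on the tool and the libraries. Over all tested genes it was 30, with 10 by total counts, 2653 by DESeq2, 1661 by limma-voom, 416 without a filter and 98 with a CPM of at least 1 in 2 samples. Leaving out 1 sample gave 0 (without curcumol replicate 2) to 3531 (without untreated replicate 2). Among the other pathway genes it was 0, with 30 by DESeq2, 14 by limma-voom, 10 without a filter, 6 with the CPM filter and 2 with a replicate block. Leaving out 1 sample gave 0 to 34. Where this leaves 1 untreated sample, that sample is assumed to vary like the curcumol samples. The cause of these differences was not tested. By title the same-numbered samples share only a number. Their deviations correlated at 0.03 and -0.03 across genes. The deviations of the 2 untreated samples are mirror images by construction, so these values cannot show or exclude a pairing. With the replicate block the median difference of the 8 genes was 1.28, and with 1 sample left out it was 0.93 to 1.38. The difference of Per1 turned to -0.0366 with the replicate block and to -0.0393 without curcumol replicate 3, and leaving out 1 sample moved it as far up as 0.496. Those of the other 7 genes stayed above 0 in all alternatives. Ddit4 had the fewest reads of the 8 genes, with 58 in untreated replicate 1 (Poisson interval 44.0 to 75.0). Its libraries also spread beyond counting error, with 122 reads in untreated replicate 2 and 160, 610 and 227 with curcumol.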
